A study of Homo sapiens with 12 samples.

Results

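TFRC encodes transferrin receptor 1, the cell surface protein through which most cells take up iron carried by transferrin. It was taken from the deposited expression table by its gene symbol, which named 1 row (ENSG00000072274) among 56337 distinct gene entries, and its level was read in all 12 libraries. Iron-loaded transferrin binds the receptor, enters the cell in clathrin-coated vesicles and gives up its iron in acidified endosomes, after which the receptor returns to the surface. The TFRC mRNA carries iron-responsive elements (IREs), short hairpins in its 3′ untranslated region (UTR). Iron regulatory proteins bind these hairpins when iron in the cell is low and protect the mRNA from decay, and they let go when iron is plentiful.

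Polyadenylated RNA was sequenced from HEK293T, an established line from human embryonic kidney with the SV40 large T antigen, in 4 groups of 3 libraries. All cells were wild type and grew in RPMI with 10% serum, and the labels put the drug step after the iron step. FAC+BafA1 cells were given the soluble iron salt ferric ammonium citrate (FAC) at 0.1 mg/ml for 24 h and then bafilomycin A1 (BafA1) at 10 nM for 24 h. BafA1 cells had bafilomycin A1 at 10 nM for 24 h without added iron, FAC cells had the iron salt at 0.1 mg/ml without bafilomycin A1, and control cells had neither. Bafilomycin A1 blocks the V-ATPase, the proton pump that acidifies endosomes and lysosomes. Replicates carry numbers in the labels, which do not name them as separate cultures, and the p-values cover the spread between libraries, which may be technical. In bulk RNA, fewer cells with the transcript and less transcript per cell cannot be told apart.

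In GENCODE release 44 on GRCh38, TFRC lies on the minus strand of chromosome 3, from 196012511 to 196082153. Its canonical transcript has 19 exons, 5012 bases and 2283 coding bases, and its 3′ UTR of 2658 bases lies within exon 19 (chr3:196049284-196051941). This UTR was searched for the IRE form, which is a bulged C, 5 stem bases, the 6-base loop CAGTGN (N, any base) and 5 bases that pair with the stem, with G-U pairs allowed. The search found 4 such hairpins, each with all 5 pairs formed. A search for the related loop CAGAGN, added after the data had been seen, found 1 more, also with all 5 pairs. The hairpins are shown because they are the part of the transcript through which iron is known to act on its stability. Each is given 5′ to 3′ as 30 bases of DNA on the transcript strand, with the loop in capitals.

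hairpin 1: atttatcagtgaCAGAGTtcactataaatg
hairpin 2: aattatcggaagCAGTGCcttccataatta
hairpin 3: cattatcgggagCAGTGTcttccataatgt
hairpin 4: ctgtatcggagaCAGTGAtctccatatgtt
hairpin 5: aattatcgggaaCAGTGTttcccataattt

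Hairpin 1, with the CAGAGN loop, lies at chr3:196051028-196051057, with its bulged C at base 891 of the UTR. Hairpin 2 lies at chr3:196050978-196051007, with its bulged C at base 941. Hairpins 3, 4 and 5 follow as a second cluster at chr3:196050574-196050603, chr3:196050509-196050538 and chr3:196050462-196050491, with bulged C bases at 1345, 1410 and 1457. Over the 3′ UTRs of 19229 genes, 829 (4.31%) held at least 1 hairpin with the CAGTGN loop and at least 4 of 5 pairs, 44 held at least 2, and TFRC held more than any other gene, ahead of 4 genes with 3. With all 5 pairs required, 121 genes (0.629%) held at least 1, and 3 genes held 2, the next highest number after the 4 of TFRC. Without the bulged C the order changed, and ARIH1 was highest with 7. The CAGAGN loop was found in 839 UTRs (4.36%). Length bears on such counts: among 2292 UTRs within 20% of the length of that of TFRC, 147 (6.41%) held at least 1 CAGTGN hairpin with 4 of 5 pairs. A match describes the letters and does not show that a protein binds there.

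**Figure D1:**
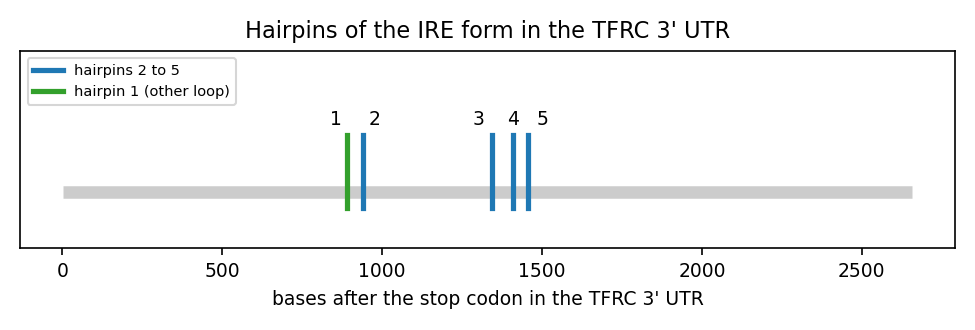
Map of the TFRC 3′ UTR, with bases after the stop codon on the x axis, and each hairpin of the IRE form drawn as a bar at its bulged C. Hairpins 1 and 2 form a cluster at bases 891 and 941, and hairpins 3 to 5 form another between bases 1345 and 1457.

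The TFRC transcript level was given as FPKM (fragments per kilobase of transcript, scaled to library depth), as computed by the authors. TFRC was at 123.91, 118.96 and 124.47 FPKM in the FAC+BafA1 libraries. It was at 130.9, 132.92 and 126.93 FPKM in the BafA1 libraries. In the FAC libraries it was at 9.39, 9.63 and 11.73 FPKM, against 58.65, 57.19 and 59.08 FPKM in the control libraries. No group overlapped another, and the order was the same in any choice of 1 library per group: BafA1 highest, then FAC+BafA1, then control, and FAC lowest. Means were 122 ± 3.03 FPKM in FAC+BafA1, 130.2 ± 3.05 in BafA1, 10.2 ± 1.29 in FAC and 58.3 ± 0.991 in control cells (SD, n = 3 each). The highest library was 14.2-fold above the lowest. The spread within a group was small beside the steps between groups, except that FAC+BafA1 and BafA1 lay close to each other. It was 2.48% of the mean in FAC+BafA1, 2.34% in BafA1, 12.6% in FAC and 1.70% in control. FAC replicate 3, at 11.73 FPKM, was the library that widened the FAC group.

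**Figure D2:**
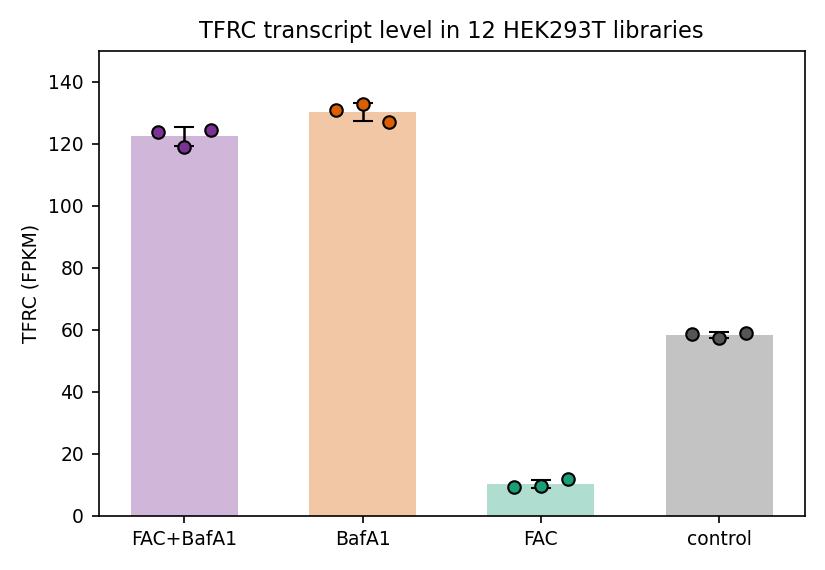
TFRC level in FPKM (y axis, from 0) in each of 12 libraries (points), with bars for the group mean and error bars for the SD (n = 3). The FAC+BafA1 and BafA1 bars stand at 122 and 130.2 FPKM, the FAC bar at 10.2 and the control bar at 58.3.

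Set against the other transcripts of the same library, TFRC stood in the upper part of the expressed genes in every group but FAC, where it stood near the middle. Among the 13682 genes that averaged 1 FPKM or more over the libraries, ranked from the most abundant, it stood at 809 to 848 in the FAC+BafA1 libraries. It stood at 708 to 744 in the BafA1 libraries, at 6832 to 7633 in the FAC libraries and at 1891 to 1983 in the control libraries. The libraries summed to different FPKM totals, 600261 to 604483 in BafA1 and 634935 to 651311 in the other 3 groups, so 2 further scales were computed. Scaled to a common FPKM total, TFRC was at 192 ± 5.13 in FAC+BafA1, 216 ± 4.30 in BafA1, 15.9 ± 2.12 in FAC and 90.4 ± 2.31 in control (SD, n = 3 each). Divided by the geometric mean of 20 genes often used as references, it was at 118 ± 4.27, 136.8 ± 2.69, 10.2 ± 1.51 and 58.1 ± 1.14 FPKM in the same order of groups. The order of the 4 groups was the same on each scale, and FAC+BafA1 and BafA1 lay further apart on both further scales.

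Differences between groups were tested with limma on log2(FPKM + 1) over all 13682 genes, with all 12 libraries in 1 fit and Benjamini-Hochberg adjustment, and called at an adjusted p under 0.05. Each of the 5 pairs of groups compared also had an exact two-sided permutation p of 0.1 for TFRC, which is the smallest p that 3 libraries against 3 allow.

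Without added iron, BafA1 raised TFRC. TFRC was 2.23-fold higher in BafA1 than in control cells, a difference of 71.9 FPKM. The log2 change was 1.15 ± 0.06 (SE, 95% interval 1.01 to 1.28, limma adjusted p = 1.04e-08), and all 3 BafA1 libraries were above all 3 control libraries. This comparison called 67.1% of all genes tested, 29.5% higher and 37.6% lower, so a call alone sets no gene apart here. By its log2 change TFRC was number 277 from the top of 13682 genes, and number 228 of 11569 protein coding genes. Over the alternative settings its rank ranged from 196, among 9655 genes, to 481, among 13682. Ranks over the alternatives, here and below, come from settings that tested between 9655 and 36431 genes.

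Iron alone lowered TFRC. TFRC was 5.69-fold lower in FAC than in control cells, a difference of -48.1 FPKM or 82.4% of the control level. The log2 change was -2.40 ± 0.06 (SE, 95% interval -2.54 to -2.27, limma adjusted p = 6.71e-12), with all 3 FAC libraries below all 3 control libraries. FAC changed far fewer genes than BafA1 did: 9.56% were called, 4.72% higher and 4.84% lower. TFRC was the 9th lowest log2 change of 11569 protein coding genes, of which 127 were called lower. Among all 13682 gene entries it was only number 255 from the bottom. That rank counts entries listed at 0 in every library with FAC, a feature of the table described next.

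The table itself differed between libraries with and without FAC, which touches each comparison across FAC. Of all entries, 304 were at 0 in all 6 libraries without FAC and at 1 FPKM or more in all 6 with FAC, and 323 showed the reverse, against 0 when the libraries were parted by BafA1. The estimated depth was between 34.4 and 37.9 megafragments in each library, and the share of low values within 0.2 of a whole fragment was 63.5% to 67.1% with FAC and 52.4% to 55.0% without it. TFRC was at 9.39 FPKM or more in each library, and the 2 measured entries that overlap it, ARL8BP1 and RNU7-18P, were at 0 FPKM except for ARL8BP1 at 0.11 in 1 FAC library. With the table limited to protein coding genes and rescaled, FAC with control called 213 genes in place of 1308, 61.0% of them higher in place of 49.4%, and the TFRC log2 change was -2.45. The part of this difference in the FAC comparisons was not otherwise tested.

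In iron-loaded cells, too, BafA1 raised TFRC. TFRC was 11.9-fold higher in FAC+BafA1 than in FAC cells, a difference of 112.2 FPKM. The log2 change was 3.46 ± 0.06 (SE, 95% interval 3.33 to 3.60, limma adjusted p = 1.71e-11), in a comparison that called 19.3% of genes, 9.76% higher and 9.49% lower. It was the largest increase of all 13682 genes tested. Over the alternative settings its rank ranged from 1 to 13. Both groups of this comparison carry FAC, so the difference in table entries between libraries with and without FAC does not enter the TFRC fold. Entries at 0 in all libraries with FAC stay among the genes tested where they averaged 1 FPKM or more, so they enter the shares called. Of protein coding genes alone, 21.4% were called. The split of all calls moved with the scale: 50.7% of the calls were higher with the values as deposited, 30.6% with reference gene scaling, 61.9% scaled to the common total and 62.0% with coding genes only.

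Under BafA1, added iron changed TFRC by less than the test could call with the values as deposited, and most other scales gave a call. TFRC was 5.99% lower in FAC+BafA1 than in BafA1 cells, a difference of -7.80 FPKM. The log2 change was -0.09 ± 0.06 (SE, 95% interval -0.22 to 0.05) and was not called (limma adjusted p = 0.222), although the 3 FAC+BafA1 libraries were all below the 3 BafA1 libraries. The interval leaves out the size of the FAC effect without BafA1. This comparison called 67.9% of all genes, 38.8% higher and 29.1% lower. The call of TFRC depended on the scale. With limma it was called lower scaled to the common total (log2 -0.17, adjusted p = 0.0432) and with reference gene scaling (log2 -0.21, adjusted p = 0.0178). It was also called lower with quantile normalization (log2 -0.17, limma adjusted p = 0.0372) and coding genes only (log2 -0.17, limma adjusted p = 0.0304). With median-of-ratios scaling it was not called (log2 -0.16, limma adjusted p = 0.0521). At the log2 change of the main fit, TFRC was also called without FAC replicate 3, a library of neither group (limma adjusted p = 0.0224). The split of all calls depended on the scale too, with 57.2% of them higher as deposited and 43.0% with reference gene scaling, which gave a median log2 change of all genes of -0.05 in place of 0.06.

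Against control cells, FAC+BafA1 cells had 2.10-fold more TFRC transcript, a difference of 64.1 FPKM. The log2 change was 1.06 ± 0.06 (SE, 95% interval 0.92 to 1.19, limma adjusted p = 2.40e-08). This comparison called 32.9% of genes, 16.2% higher and 16.6% lower, and 34.1% of its calls were higher with reference gene scaling in place of 49.4%. TFRC ranked number 582 from the top of all genes and number 97 of the protein coding genes.

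The interaction, in which the BafA1 change of cells without added iron is subtracted from that of iron-loaded cells, asked whether iron altered the response to BafA1. For TFRC it was 2.32 ± 0.09 on the log2 scale (SE, 95% interval 2.13 to 2.51, limma adjusted p = 4.02e-09), so the BafA1 increase was larger in iron-loaded cells. The interaction was called for 50.1% of genes, 29.5% higher and 20.6% lower, and 58.9% of these calls were higher as deposited, 48.5% with median-of-ratios scaling and 42.5% with reference gene scaling. The last scale moved the median interaction of all genes to -0.04, against 0.06 as deposited, and that of TFRC to 2.19. TFRC ranked number 4 of all genes and number 2 of the protein coding genes, and from 3 to 51 over the alternative settings. If the FAC fold and the BafA1 fold had multiplied, FAC+BafA1 cells would have had 22.9 FPKM, and if the differences had added, 82.2 FPKM. The measured 122 FPKM was 5.35 times the first value and also above the second.

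**Figure D3:**
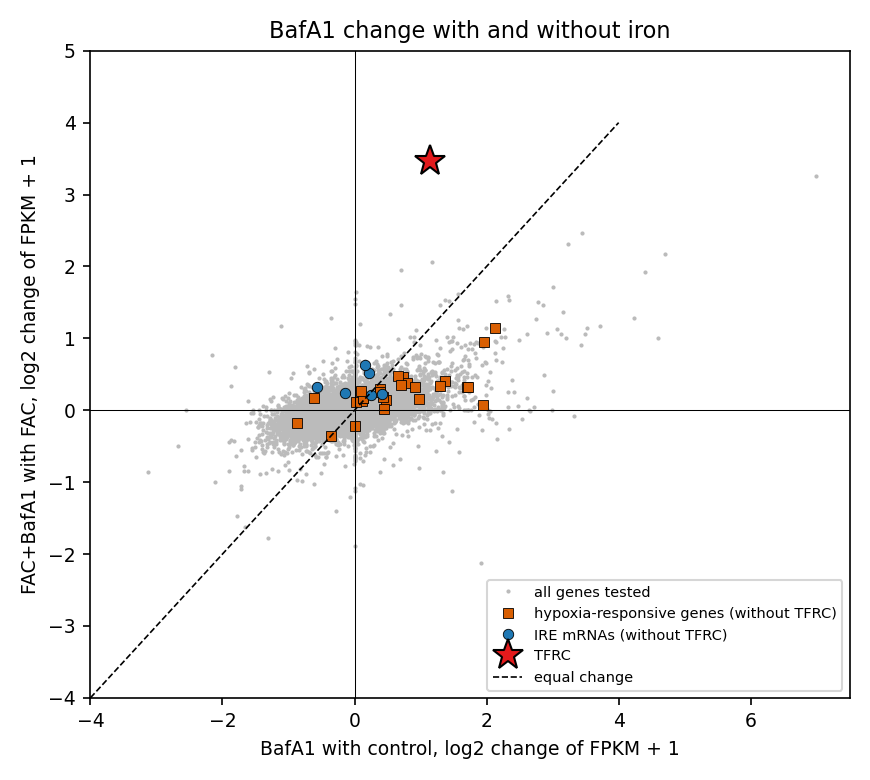
Log2 change of FPKM + 1 with BafA1 in cells without added iron (x axis, BafA1 with control) and in iron-loaded cells (y axis, FAC+BafA1 with FAC) for 13682 genes, with the hypoxia-responsive genes, the other IRE mRNAs and TFRC marked and a dashed line where the changes are equal. TFRC stands at 1.15 and 3.46, the highest gene on the y axis.

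Other mRNAs known to carry IREs were set beside TFRC, as a list of 8 genes including TFRC, of which ALAS2, the erythroid heme synthesis enzyme, was near 0 and not tested. Without TFRC, 6 tested genes remained. Limma called 3 higher and 2 lower for BafA1 with control, 1 higher and 1 lower for FAC with control, 3 higher and 1 lower for FAC+BafA1 with BafA1, 5 for FAC+BafA1 with FAC, all higher, and 4 in the interaction, all higher. Over all protein coding genes in the same fit the shares called in either direction were 71.9%, 2.46%, 67.5%, 21.4% and 54.1% in that order, and 6 genes are too few to set against them. Their median log2 changes were 0.19, -0.12, 0.26, 0.29 and 0.34 in that order, against -0.04, -0.00259, 0.06, 0.000592 and 0.06 over all genes tested, and each was smaller in size than the TFRC value except for FAC+BafA1 with BafA1. SLC11A2, the divalent metal transporter that moves iron out of endosomes, has a 3′ IRE in some of its transcripts. Its level was 17.4 ± 0.478 FPKM in FAC+BafA1, 17.01 ± 0.840 in BafA1, 11.9 ± 0.853 in FAC and 14.4 ± 0.961 in control (SD, n = 3 each). SLC11A2 was called in the same direction as TFRC in the comparisons of BafA1 with control (0.22), FAC with control (-0.26) and FAC+BafA1 with FAC (0.52), with the TFRC values at 1.15, -2.40 and 3.46. The FAC call of SLC11A2 was lost without control replicate 1 (adjusted p = 0.0621), without FAC replicate 1 (0.0634), without FAC replicate 2 (0.0520) or with the 2 groups alone (0.061). Its interaction of 0.29 was lost with reference gene scaling (limma adjusted p = 0.148), median-of-ratios scaling (0.0673) and scaling to the common total (0.0529). CDC14A, a phosphatase whose mRNA has a 3′ IRE, was at 3.23 ± 0.299, 3.94 ± 0.0702, 2.61 ± 0.262 and 2.71 ± 0.251 FPKM in the same order of groups. It was called higher with BafA1 against control (log2 0.41), as TFRC was, and was not called with FAC (log2 -0.04). In the main fit it was called neither for FAC+BafA1 with FAC (log2 0.23) nor in the interaction (log2 -0.19).

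The remaining IRE mRNAs carry the element in the 5′ UTR, where the iron regulatory proteins are known to block translation, so a transcript change is not the readout of that control. FTH1, the ferritin heavy chain that stores iron, was at 663 ± 17.7 FPKM in FAC+BafA1, 553 ± 25.0 in BafA1, 559 ± 10.98 in FAC and 608 ± 21.7 in control (SD, n = 3 each). Its call with BafA1 (log2 -0.14) was lost with each of the 4 other scalings and with coding genes only (limma adjusted p = 0.135 to 0.996). FTL, the ferritin light chain, was at 397 ± 7.80, 332 ± 10.7, 343 ± 18.7 and 279 ± 7.66 FPKM in that order of groups. Processed pseudogenes of both ferritin genes make the assignment of their reads uncertain. FTL was the 1 gene of the 6 called higher with FAC (log2 0.30), where TFRC fell. SLC40A1, the iron exporter ferroportin, was low, at 1.64 ± 0.0964, 0.543 ± 0.121, 1.11 ± 0.206 and 1.29 ± 0.0924 FPKM, and fell with BafA1 in cells without added iron (log2 -0.57), opposite to TFRC. Its call for FAC+BafA1 with FAC (log2 0.32) was lost in 8 alternatives, among them the replicate block (limma adjusted p = 0.0573), quantile normalization (0.0592), no filter (0.0964) and leaving out FAC replicate 2 or 3 or any FAC+BafA1 replicate (0.0605 to 0.101). EPAS1, which encodes the hypoxia factor HIF-2 alpha, was at 8.46 ± 1.45, 6.797 ± 0.705, 5.11 ± 0.882 and 5.96 ± 0.244 FPKM, and its interaction of 0.47 was lost in 13 alternatives. These were reference gene scaling (limma adjusted p = 0.0825), median-of-ratios scaling (0.0584), scaling to the common total (0.0663), coding genes only (0.0507), no filter (0.101) and the replicate block (0.0561). It was also lost without any 1 of control replicates 2 and 3, BafA1 replicates 2 and 3, FAC replicates 1 and 3 and FAC+BafA1 replicate 3, with limma adjusted p values of 0.0624 to 0.0837. For FAC with control, TFRC thus had a log2 change of -2.40 and the other 6 had changes of -0.26 to 0.30.

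**Figure D4:**
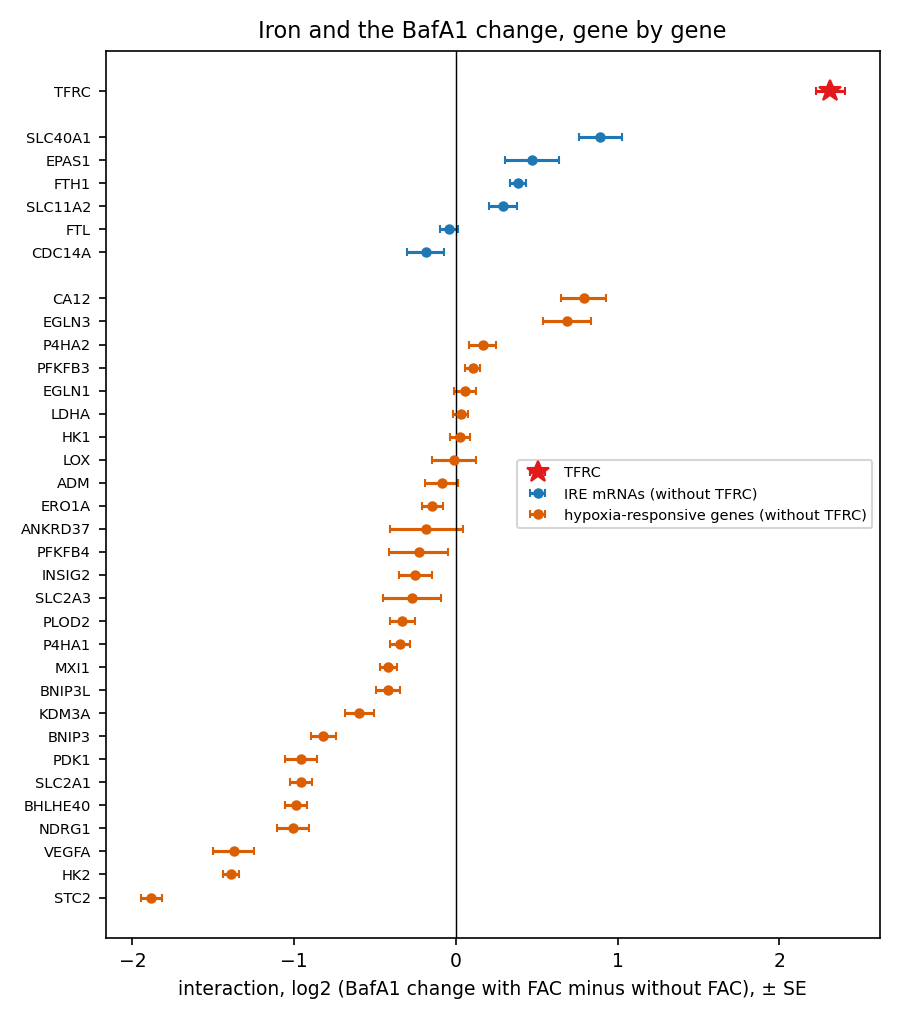
Interaction on the log2 scale (x axis, BafA1 change in iron-loaded cells minus that in cells without added iron, bars for the SE) for TFRC, 6 other IRE mRNAs and 27 other hypoxia-responsive genes. TFRC is at 2.32, the other IRE mRNAs lie between -0.19 and 0.89, and most of the hypoxia-responsive genes lie below 0.

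Genes whose 3′ UTR holds a CAGTGN hairpin of the same form were called with iron at about the share of all protein coding genes. There were 828 such genes beside TFRC with at least 4 of 5 pairs, all of them protein coding, and 581 were tested. For FAC with control limma called 6 of them higher and 6 lower, 2.07% of the 581, against 2.46% of the 11569 protein coding genes in the same fit and 9.56% of all entries. For FAC+BafA1 with FAC it called 66 higher and 57 lower, 21.2% against 21.4% of protein coding genes, and for the interaction 189 higher and 134 lower, 55.6% against 54.1%. Of the 93 tested genes whose hairpin had all 5 pairs, 1 was called with FAC, and it was higher.

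The iron regulatory proteins themselves, the factors that control them and the proteins that act on TFRC mRNA formed a list of 16 genes. Limma called 1 of them for FAC with control, which was higher, 5 higher and 7 lower for BafA1 with control, 3 for FAC+BafA1 with FAC, all lower, and 7 higher and 5 lower in the interaction. Of all protein coding genes 2.46%, 71.9%, 21.4% and 54.1% were called in these comparisons, and the counts of so short a list were not tested against these shares. SKP1, a subunit of the ubiquitin ligase that FBXL5 serves, was 1 of the 3 (log2 -0.12, limma adjusted p = 0.0464), and its call was lost in 15 alternatives, among them the replicate block (0.0551), scaling to the common total (0.112), coding genes only (0.0909) and leaving out any FAC or FAC+BafA1 library (0.0673 to 0.14). ACO1, which encodes iron regulatory protein 1, was at 19.1 ± 0.738 FPKM in FAC+BafA1, 13.9 ± 0.474 in BafA1, 20.6 ± 0.560 in FAC and 20.1 ± 0.147 in control (SD, n = 3 each). It was called lower with BafA1 (log2 -0.50), where TFRC was higher, and was not called with FAC (log2 0.04), where TFRC was lower. IREB2, iron regulatory protein 2, was at 52.0 ± 1.89, 60.3 ± 1.72, 52.5 ± 1.56 and 54.8 ± 4.35 FPKM in that order of groups. It was called higher with BafA1 (log2 0.14, limma adjusted p = 0.0339), as TFRC was, and lower in FAC+BafA1 than in BafA1 cells (log2 -0.21). The call with BafA1 was lost without control replicate 3 (limma adjusted p = 0.152), BafA1 replicate 1 (0.11) or BafA1 replicate 2 (0.0555). It was also lost with no filter (0.0834), no trend (0.0532) and the 2 groups alone (0.101). FBXL5, the iron-sensing ubiquitin ligase subunit that marks IREB2 for breakdown, was at 19.5 ± 0.460, 15.3 ± 0.360, 21.9 ± 0.425 and 21.0 ± 1.73 FPKM and was called lower with BafA1 (log2 -0.43). NCOA4, the receptor that carries ferritin to the lysosome, was the 1 gene of the list called with FAC (log2 0.26). It was at 61.0 ± 0.942 FPKM in FAC+BafA1, 86.0 ± 0.748 in BafA1, 70.4 ± 1.25 in FAC and 58.8 ± 0.814 in control, and its interaction was -0.75, opposite in sign to that of TFRC. RC3H1 and RC3H2, which encode the RNA-binding proteins Roquin-1 and Roquin-2 known in mouse cells to act on this mRNA, were called higher with BafA1 (log2 0.56 and 0.42). ZC3H12A, the nuclease Regnase-1 known in mouse cells to cleave it, was low at 1.18 to 1.73 FPKM in the group means and was called neither with BafA1 (log2 -0.01) nor with FAC (log2 0.18). RNA levels say nothing of the activity of these proteins, which iron is known to control after translation.

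Calls among the partners of the receptor are set beside the shares of all protein coding genes called, which were 2.46% with FAC, 71.9% with BafA1 and 21.4% for FAC+BafA1 with FAC. Transferrin (TF), the related receptor TFR2 and HFE, a membrane protein that binds the receptor, were at group means of at most 0.187 FPKM, and none was tested. Of 11 tested genes for ligands, co-receptors and iron release, limma called 1 with FAC, which was SLC11A2. STEAP3, the ferrireductase that reduces iron in the transferrin endosome, was at 14.0 ± 0.284 FPKM in FAC+BafA1, 8.23 ± 0.305 in BafA1, 13.1 ± 0.485 in FAC and 14.4 ± 0.711 in control (SD, n = 3 each). STEAP3 fell with BafA1 in cells without added iron (log2 -0.73) while TFRC rose, and FAC+BafA1 was not called against FAC (log2 0.09), where TFRC had its largest change. Of 27 genes for the clathrin-mediated uptake of the receptor, 1 was called with FAC, which was lower, and 10 were called higher and 11 lower with BafA1. The mu and sigma subunits of the AP-2 adaptor, AP2M1 and AP2S1, fell with BafA1 (log2 -0.33 and -0.54), and the kinase AAK1 and the early endosome GTPase RAB5A rose (log2 1.14 and 1.07). Of 39 tested genes for receptor recycling and sorting, limma called 0 with FAC (0 higher and 1 lower at an unadjusted p under 0.05), 11 higher and 14 lower with BafA1, and 4 higher and 1 lower for FAC+BafA1 with FAC. The recycling GTPase RAB4A and EHD1, which acts at recycling endosomes, fell with BafA1 (log2 -0.34 and -0.61).

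TFRC is also known as a target of hypoxia-inducible factors and of MYC. The promoter is shown with the core letters that hypoxia-inducible factors are known to bind. In the 250 bases before the RefSeq start (GRCh38.p14, chr3:196082091-196082340, minus strand), the core letters ACGTG were found 1 time on the transcript strand, 88 bases before the start, and are in capitals.

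TFRC promoter: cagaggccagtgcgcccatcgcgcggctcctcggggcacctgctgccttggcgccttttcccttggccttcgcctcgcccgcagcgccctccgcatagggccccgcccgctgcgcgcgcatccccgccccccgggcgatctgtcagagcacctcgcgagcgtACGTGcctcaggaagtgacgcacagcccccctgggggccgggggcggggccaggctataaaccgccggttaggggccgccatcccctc

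The letters ACGTG on either strand (CACGT on the other, with CACGTG holding both) were present in 6501 of 35116 RefSeq promoters of this length (18.5%) and in 13 of the 25 hypoxia-responsive genes that matched a promoter (52.0%). The 25 genes include TFRC with its own match and have 1 promoter each, while the 35116 promoters were not limited to 1 per gene. The 2 shares are thus not like for like. The match says nothing of whether a factor was bound. Of 27 tested hypoxia-responsive genes without TFRC, limma called 21 higher and 3 lower with BafA1 against control. Of all genes tested, 29.5% were called higher and 37.6% lower there. TFRC rose in the same comparison. With FAC against control limma called 1, the histone demethylase KDM3A, which was lower (log2 -0.27), where TFRC had -2.40. Of all protein coding genes, 2.46% were called with FAC. The KDM3A call was lost without control replicate 1 (limma adjusted p = 0.0501), FAC replicate 1 (0.0541) or FAC replicate 2 (0.0577), and with the 2 groups alone (0.0545). For FAC+BafA1 with FAC, 17 were higher and 1 lower, where 9.76% of all genes were called higher and 9.49% lower. For FAC+BafA1 with BafA1, 3 were higher and 15 lower, where the shares of all genes were 38.8% and 29.1%. In the interaction limma called 2 higher and 13 lower, where the shares of all genes were 29.5% and 20.6%. The list's median there was -0.27, and TFRC had 2.32. VEGFA, an angiogenic growth factor, was at 17.03 ± 1.75 FPKM in FAC+BafA1, 42.8 ± 2.85 in BafA1, 13.4 ± 1.75 in FAC and 12.4 ± 0.355 in control (SD, n = 3 each). BHLHE40, a transcriptional repressor induced by hypoxia, was at 13.2 ± 0.215, 27.9 ± 0.608, 5.43 ± 0.376 and 5.58 ± 0.0872 FPKM in that order of groups. Both genes were called lower in FAC+BafA1 than in BafA1 cells. TFRC had a log2 change of -0.09 there, not called with the values as deposited and called lower on some other scales.

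Among 16 tested transcription factors and regulators known for TFRC, 12 were called higher and 2 lower with BafA1, where 29.5% of all genes were called higher and 37.6% lower. With FAC 1 was called, which was higher, where 2.46% of protein coding genes were called. MYC, which activates TFRC in growing cells, was at 54.1 ± 0.755 FPKM in FAC+BafA1, 117.5 ± 7.75 in BafA1, 52.9 ± 2.10 in FAC and 51.9 ± 1.07 in control (SD, n = 3 each). MYC was called higher with BafA1 (log2 1.16) beside TFRC, and its FAC+BafA1 level was not called against control (log2 0.06), where TFRC was 2.10-fold higher. HIF1A, the oxygen-regulated hypoxia factor subunit, was not called in any comparison of the main fit, at 44.8 ± 1.73 FPKM in FAC+BafA1, 47.8 ± 5.47 in BafA1, 46.4 ± 3.07 in FAC and 49.99 ± 2.65 in control (SD, n = 3 each). It was called lower in FAC+BafA1 than in BafA1 with reference gene scaling (limma adjusted p = 0.027) and without BafA1 replicate 3 (0.0238). With the 2 groups alone it was called lower in FAC+BafA1 than in control (limma adjusted p = 0.0451). The HIF1A RNA level says nothing of the amount or activity of its protein.

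The genes whose profile was most like that of TFRC were ranked by Pearson's r of log2(FPKM + 1) over the 12 libraries, among 760 tested protein coding genes whose group means ranged over at least 1 log2 unit. The 12 points fall into 4 treatment groups and share the library and its scale, so r is a description. The median r was 0.366, and 1 gene reached 0.9. That gene, EMILIN2, an extracellular matrix glycoprotein, had r = 0.934. It was at 4.67, 4.77 and 4.96 FPKM in FAC+BafA1 and 9.52, 8.58 and 8.84 FPKM in BafA1. It was at 1.21, 0.96 and 1.13 FPKM in FAC, against 5.34, 5.03 and 5.09 FPKM in control. EMILIN2 shared the low FAC level (log2 -1.55 against control). Its FAC+BafA1 level was called lower than that of BafA1 (log2 -0.78), where TFRC had -0.09 and was not called as deposited. Unlike TFRC, EMILIN2 was not called for FAC+BafA1 against control (log2 -0.09). The next 7 were SYTL5 (0.832), CLU (0.820), VIM (0.820), SAMD4A (0.817), DTNA (0.816), HRK (0.810) and UGCG (0.798). Of the 8, 3 were called lower with FAC against control, EMILIN2, SYTL5 and VIM, with log2 changes of -1.55, -0.43 and -0.08. The VIM call was lost in 14 of 24 alternatives, among them leaving out control replicate 1 or 2, FAC replicate 2 or 3 or any FAC+BafA1 replicate (limma adjusted p = 0.0542 to 0.156). By Spearman's rho 2 of the 8 remained among the 8 highest, and over the 4 group means 6 did.

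The most opposite gene was HMOX1, heme oxygenase 1, which frees iron from heme, with r = -0.953. HMOX1 was at 11.65, 10.25 and 11.26 FPKM in FAC+BafA1 and 8.13, 7.93 and 7.86 FPKM in BafA1. It was at 44.23, 36.63 and 39.91 FPKM in FAC, against 21.31, 22.58 and 19.74 FPKM in control. It was high where TFRC was low, with a log2 change of 0.89 with FAC against control and of -1.77 for FAC+BafA1 with FAC. SLC43A2 (-0.873), RUNX1T1 (-0.831) and GCLM (-0.828), the modifier subunit of the enzyme that starts glutathione synthesis, followed.

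**Figure D5:**
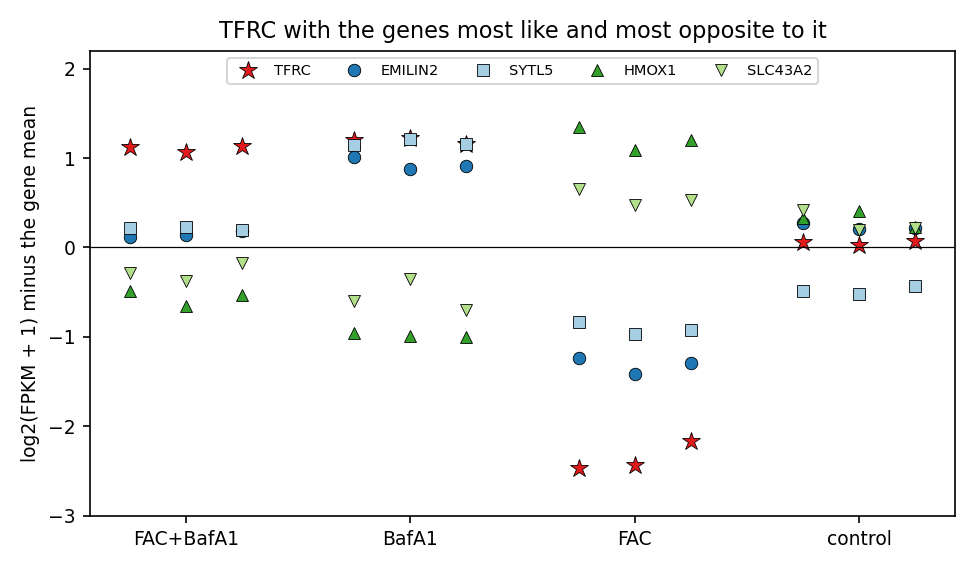
Log2(FPKM + 1) minus each gene's mean over the libraries (y axis) in 12 libraries by group for TFRC, EMILIN2 and SYTL5 (most like) and HMOX1 and SLC43A2 (most opposite). TFRC and EMILIN2 are lowest in the FAC libraries, where HMOX1 is highest.

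The genes ranked next to TFRC by the interaction had another pattern. Of the 8 neighbours named, MIR3661, ID3, HSPA1B, HSPA1A and C4orf48 were called, with interactions of 2.93, 2.42, 2.27, 2.17 and 1.83, and ENSG00000229797, RMRP and RPL21P119 were not. Each of the 5 called genes fell with BafA1 in cells without added iron, and TFRC rose there. ID3, an inhibitor of differentiation factors, was at 6.69 ± 0.541 FPKM in FAC+BafA1, 16.6 ± 1.98 in BafA1, 4.06 ± 0.553 in FAC and 60.4 ± 2.81 in control (SD, n = 3 each). HSPA1B, an inducible chaperone, was at 363 ± 21.1, 62.2 ± 2.01, 661 ± 37.7 and 553 ± 42.4 FPKM in that order of groups. HSPA1A and HSPA1B are near-identical copies, so the split of reads between them is uncertain.

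The neighbours of TFRC on chromosome 3 were described as well. TNK2, a kinase gene 100.6 kb away, was at 6.99 ± 0.289 FPKM in FAC+BafA1, 6.57 ± 1.29 in BafA1, 7.16 ± 1.30 in FAC and 6.34 ± 0.637 in control (SD, n = 3 each), with no call in any comparison. PCYT1A, a phosphatidylcholine synthesis enzyme 132.1 kb away on the other side, was at 15.3 ± 0.860, 18.4 ± 0.630, 14.5 ± 0.939 and 15.2 ± 0.155 FPKM and was called higher with BafA1 (log2 0.26) but not with FAC (log2 -0.06). APOD, MUC20, MUC4, ZDHHC19 and SLC51A were below 1 FPKM in each group mean and were not tested. ENSG00000272741 was listed at 0 in all 6 libraries with FAC and was at 8.05 ± 0.469 FPKM in BafA1 and 13.2 ± 0.887 FPKM in control cells, and is 1 of the 323 entries described above. This entry (chr3:196248230-196318222) overlaps both PCYT1A and DYNLT2B on the same strand. The part of this overlap in the values of PCYT1A and DYNLT2B across FAC was not tested. DYNLT2B (TCTEX1D2 in the table), 209.1 kb away, was at 6.85 ± 0.502, 8.05 ± 0.740, 7.84 ± 0.502 and 8.40 ± 0.572 FPKM and was not called with BafA1 or FAC alone. It was called lower in FAC+BafA1 than in BafA1 (log2 -0.20, limma adjusted p = 0.0325) and than in control (log2 -0.26, adjusted p = 0.0214). The first call was lost in 6 alternatives, among them leaving out BafA1 replicate 1 or 2 or FAC+BafA1 replicate 2 or 3, and the second without control replicate 2 or FAC+BafA1 replicate 3 (limma adjusted p = 0.0539 to 0.134 over both).

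The cell markers were those of a HEK293 culture. Of 8 genes known for the line, 7 were tested, and their summed level was 174 to 179 FPKM in FAC+BafA1, 221 to 237 in BafA1, 157 to 160 in FAC and 154 to 159 in control. Of 12 erythroid genes, markers of cells with high TFRC, only 2 were high enough to be tested. The 12 genes summed to 5.1 to 5.8 FPKM in FAC+BafA1, 3.11 to 3.46 in BafA1, 4.74 to 5.78 in FAC and 4.67 to 5.17 in control, with HBB, HBG1 and GYPB at 0 throughout. The markers of blood cells, keratinocytes or HeLa cells and fibroblasts summed to at most 1.96, 0.41 and 8.38 FPKM in any library. The erythroid sum was lowest in the BafA1 group, where TFRC was highest, and the HEK293 sum was highest there. With BafA1 against control, limma called 5 of the 7 HEK293 genes higher and 1 lower, and the 2 tested erythroid genes lower. Of all genes tested, 29.5% were called higher and 37.6% lower in that comparison. The part of the HEK293 marker shift in the TFRC result was not tested.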

How the data were processed

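RNA was sequenced from 12 HEK293T libraries in 4 groups of 3; per the labels' protocols the kit was a stranded one for mRNA. The deposited table holds FPKM per gene, rounded to 2 decimals by the authors; the submitters' processing notes name STAR, RSEM and GRCh38. No version, annotation release or strand setting is given in the sources used here. Of 56340 entries, 3 repeats of an ID, at 0, were dropped. No count test was used, since FPKM are scaled values; library depth was approximated from steps in the low values, assuming fragments of 150 bases, and no count was recovered.

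Values were taken as log2(FPKM + 1), which understates changes of low genes. The 13682 genes averaging 1 FPKM or more were tested with limma 3.58.1 in R 4.3.3, with 1 mean per group and an intensity trend, and p-values were adjusted by Benjamini-Hochberg within each of 6 comparisons. Folds are ratios of mean FPKM. The fit was checked on simulated data. Hairpins were searched in canonical transcripts of GENCODE release 44, and the promoter came from RefSeq (GRCh38.p14). A further gene is not reported here. TFRC and the gene lists were chosen with earlier results of these data known. Up to 6 members of each list were named, by mean FPKM or known role; likeness, interaction rank and chromosomal neighbours followed fixed numbers of genes. Alternatives were other scalings, pseudocounts, filters, no trend, the 2 groups alone, a replicate block and leaving out each library. Same-numbered libraries did not deviate together (median r 0.0152 over 18 pairs), so the numbers were not taken as pairs.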

Additional observations from a re-analysis of the deposited data

Results flagged for a closer look

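The change with BafA1 differed between iron-loaded cells and cells without added iron, by limma's test of the difference itself, for TFRC and for 56 of the 75 other genes named that were tested, 30 higher and 26 lower. Some were chosen for that difference, and 50.1% of all genes tested were called in it. Values follow for those whose interaction is described. TFRC had an interaction of 2.32 on the log2 scale. Among its neighbours in that rank, MIR3661 had 2.93, ID3 2.42, HSPA1B 2.27, HSPA1A 2.17 and C4orf48 1.83. The MIR3661 call was lost with a pseudocount of 0.01 (adjusted p = 0.0916).

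Of the other IRE mRNAs, SLC40A1 had an interaction of 0.89, EPAS1 0.47, FTH1 0.38 and SLC11A2 0.29. The EPAS1 and SLC11A2 calls were lost with reference gene scaling (limma adjusted p = 0.0825 and 0.148) and in the other alternatives given above. EMILIN2, the gene most like TFRC over the libraries, had 0.77. NCOA4, the ferritin receptor, had -0.75. Groups of 3 libraries are too small to be searched for a library far from the others.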

How the results depend on the processing

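The TFRC changes for BafA1 with control, for FAC with control and for FAC+BafA1 with either FAC or control kept their direction and their call under all 24 alternatives, and the interaction under all 23 that apply to it. With 1 library left out, the log2 values ranged from 1.13 to 1.16 for BafA1 with control, from -2.50 to -2.35 for FAC with control, from 3.41 to 3.55 for FAC+BafA1 with FAC, from 1.04 to 1.08 for FAC+BafA1 with control, and from 2.26 to 2.41 for the interaction. FAC+BafA1 with BafA1 ranged from -0.107 to -0.0679 and was called, with adjusted p = 0.0224, when FAC replicate 3 was left out (-0.0885). Further limma calls of it came with quantile normalization (-0.17, adjusted p = 0.0372), after scaling to a common total (-0.17, adjusted p = 0.0432) and with reference gene scaling (-0.21, adjusted p = 0.0178). Coding genes only (-0.17, adjusted p = 0.0304) and the 2 groups alone (-0.0885, adjusted p = 0.0364) gave limma calls as well. Its limma adjusted p ranged from 0.0178 to 0.423. Without FAC replicate 3 and with the 2 groups alone, the log2 value was that of the main fit. The SE was 0.0301 and 0.0312 in place of 0.0618. The main fit takes the spread from all 12 libraries, and FAC replicate 3 is in neither group compared. The cause of the other changes of call was not tested.

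With the replicate number as a block, the TFRC interaction was 2.32 (adjusted p = 9.01e-08) and no call of TFRC changed; the count for BafA1 with control was 9082 in place of 9180, and 5 of 12 libraries matched their own number best. Calls for FAC with control numbered 213 with coding genes only, 402 at a mean of at least 5 FPKM and 4486 with no filter, in place of 1308, and for FAC+BafA1 with control 7643 with no filter in place of 4498. Of 10617 alternative values for 444 results of other named genes, 10285 kept direction and call, 228 lost the call, 101 gained it and 3 reversed: for BafA1 with control, PCBP1 with quantile normalization (0.0046) and RAB11A with quantile normalization (0.0809) and coding genes only (0.0036). Depth behind each value is only estimated, which limits statements on low genes.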
